A study of Mus musculus with 7 samples.

Results

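The 9 genes described here, Farsa, Syce2, Gcdh, Klf1, Dnase2a, Mast1, Prdx2, Junb and Hook2, lie beside Calr on mouse chromosome 8. They were chosen by gene symbol and place, to see whether removing calreticulin went with a different transcript level of the genes that share its locus. The rule uses no measured value, but the choice was made with earlier results of these data known. These genes are 9 of 13120 with a tested probe set. Of the 45101 probe sets on the array, 14 carried the symbol of 1 of these genes and no other, and 1 more, annotated to a member and to a second gene, was left out. The samples were 7 RNA pools of D3 mouse embryonic stem cells, an established line. There were 2 pools from wild type cells (WT 1 and WT 2) and 5 from calreticulin knockout cells (KO 1 to KO 5), each made from replicate cultures and hybridised to an Affymetrix Mouse 430 2.0 array. The labels name neither the knockout allele nor the number of clones behind the 5 pools, and they give no treatment. The p-values therefore measure the spread between these pools.

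Gene targeting replaces or interrupts a stretch of DNA, and a cassette left in the locus carries its own promoter, which is known at some loci to alter the transcription of genes nearby. The genes beside Calr have unrelated functions. Farsa encodes the catalytic subunit of the phenylalanyl-tRNA synthetase, and Gcdh the mitochondrial glutaryl-CoA dehydrogenase of lysine and tryptophan breakdown. Prdx2 encodes a thioredoxin-dependent peroxidase and Dnase2a the acid DNase of lysosomes. Klf1 encodes the zinc finger activator of the beta-globin gene in red cell precursors, and Junb a subunit of the AP-1 transcription factor. Syce2 encodes a protein of the central element of the synaptonemal complex, which joins homologous chromosomes in meiosis. Mast1 encodes a microtubule-associated serine/threonine kinase and Hook2 an adaptor that links cargo to the dynein motor. In the chromosome order of RefSeq genes (assembly GRCm38.p6) all 9 lie on the same side of Calr. Farsa is in the third place after it, Syce2 in the fifth, Gcdh in the sixth, Klf1 in place 8, Dnase2a in place 9, Mast1 in place 10, Prdx2 in place 14, Junb in place 15 and Hook2 in place 16. Probe sets are given without coordinates because the deposited table has no build.

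The promoters of Calr and of 4 members are shown because the comparison contrasts a disrupted gene with neighbours that have start regions of their own. RefSeq windows on GRCm38.p6 run from 250 bases before to 50 bases after each annotated start, and all 9 members had at least 1. The windows are chr8:84846882-84847181 (minus strand) for Calr, chr8:84856736-84857035 (plus) for Farsa, chr8:84901732-84902031 (plus) for Klf1, chr8:84969372-84969671 (plus) for Prdx2 and chr8:84978699-84978998 (minus) for Junb. Capitals mark every match, on either strand, to 8 motifs, and in the ER stress element only its fixed bases are in capitals.
Calr: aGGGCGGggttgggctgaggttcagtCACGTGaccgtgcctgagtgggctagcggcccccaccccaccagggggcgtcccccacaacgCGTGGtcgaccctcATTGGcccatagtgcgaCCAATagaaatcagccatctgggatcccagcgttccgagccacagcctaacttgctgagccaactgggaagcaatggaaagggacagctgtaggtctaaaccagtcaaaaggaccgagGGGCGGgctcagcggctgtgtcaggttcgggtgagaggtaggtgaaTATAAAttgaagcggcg
Farsa: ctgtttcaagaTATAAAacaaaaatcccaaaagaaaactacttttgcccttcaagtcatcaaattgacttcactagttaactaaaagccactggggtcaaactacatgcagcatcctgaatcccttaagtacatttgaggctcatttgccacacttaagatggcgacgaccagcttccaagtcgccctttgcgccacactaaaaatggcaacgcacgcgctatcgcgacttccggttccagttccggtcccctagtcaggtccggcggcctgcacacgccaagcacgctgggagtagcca
Klf1: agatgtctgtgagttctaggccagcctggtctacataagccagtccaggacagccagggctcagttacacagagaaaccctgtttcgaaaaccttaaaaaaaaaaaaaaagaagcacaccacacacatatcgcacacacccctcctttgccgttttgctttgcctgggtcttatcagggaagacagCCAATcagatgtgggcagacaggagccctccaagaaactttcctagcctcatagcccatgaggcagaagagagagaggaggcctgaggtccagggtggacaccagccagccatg
Prdx2: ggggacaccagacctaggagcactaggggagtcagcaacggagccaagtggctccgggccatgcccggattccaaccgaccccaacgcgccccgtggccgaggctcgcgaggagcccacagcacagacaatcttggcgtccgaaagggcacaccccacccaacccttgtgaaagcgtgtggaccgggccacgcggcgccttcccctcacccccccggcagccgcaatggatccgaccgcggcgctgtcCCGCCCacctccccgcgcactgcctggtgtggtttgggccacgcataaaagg
Junb: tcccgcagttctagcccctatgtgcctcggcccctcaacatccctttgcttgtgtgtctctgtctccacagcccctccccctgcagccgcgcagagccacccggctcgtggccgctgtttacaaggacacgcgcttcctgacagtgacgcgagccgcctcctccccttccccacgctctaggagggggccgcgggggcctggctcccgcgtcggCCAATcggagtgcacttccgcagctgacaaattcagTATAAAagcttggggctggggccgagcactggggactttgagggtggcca
The Calr window held the core of the ER stress element, CCAAT and CCACG with 9 bases of any kind between them, a motif known to be bound by NF-Y and ATF6 at genes of the endoplasmic reticulum (ER). That motif was found in 39 of 32851 RefSeq promoter windows (0.119%) and in no window of the 9 members. Its left end is itself a CCAAT box, and CCAAT, present in 37.4% of windows, was found in those of Gcdh, Klf1, Dnase2a, Mast1 and Junb. The GC box GGGCGG (35.7% of windows) was found in those of Calr, Syce2, Gcdh, Dnase2a, Mast1, Prdx2 and Hook2. TATAAA (13.6%) was found in those of Calr, Farsa and Junb, and the E-box CACGTG (7.15%) in those of Calr and Hook2 and in 1 of 2 Syce2 windows. The AP-1 site TGANTCA (7.81%), the cyclic AMP element TGACGTCA (1.79%) and the Kruppel-like factor box CCACACCC (3.56%) were in none of the windows of Calr and the members. A long non-coding RNA gene, 1700122E12Rik, starts 216 bases from Calr on the opposite strand, and 285 of the 300 bases of the 2 windows are shared. No probe set was assigned to that gene, so its level is not described here.

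The targeted gene was lower in the libraries labelled knockout, although it is not known here whether its probes lie in the deleted part. With the brightest Calr probe set, signals were 12460 and 10840 in the wild type libraries and 577 to 1064 in the knockout libraries. Signals here are MAS5 intensities on a linear scale, each array scaled to a common level. The log2 difference, knockout minus wild type, was -3.68 (SE 0.30, limma adjusted p = 0.00595), and no member came near it in size. Among the members the differences ran from -0.50 to 0.49. Of the 13 member probe sets bright enough to be tested, 0 passed an adjusted p of 0.05, 0 passed an unadjusted p of 0.05, and adjusted p-values ran from 0.575 to 0.982. Over all 27022 probe sets tested, 0.0296% passed the adjusted and 8.42% the unadjusted threshold. The groups overlapped at all 14 member probe sets, the untested one included, whereas they did not overlap at 13.6% of the probe sets tested (7.8% with the knockout higher, 5.85% with it lower). The member differences were negative at 8 probe sets and positive at 5, where 44.1% of all probe sets were negative. Their median was -0.18, against a median of 0.07 over all probe sets. With quantile normalization and with centred arrays, 9 member probe sets were negative, against 52.3% and 54.3% of all probe sets. The member median was then -0.30 in both, and that of all probe sets -0.03 and -0.05.

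**Figure D1:**
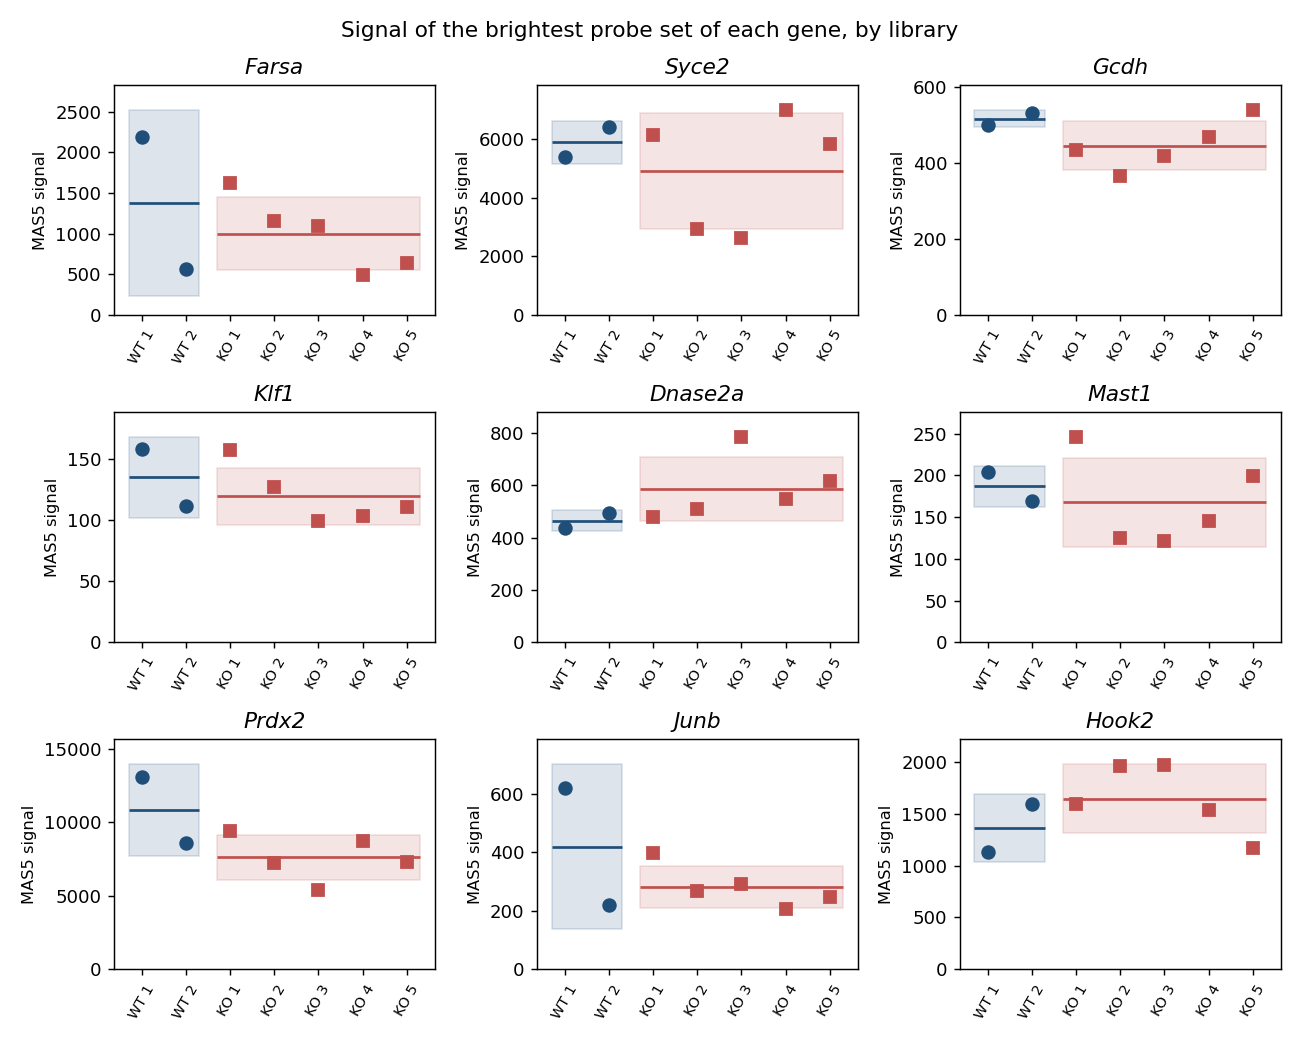
MAS5 signal (linear scale from 0) of the brightest probe set of each of the 9 genes in the 2 wild type libraries (blue circles) and the 5 knockout libraries (red squares), with lines for group means and shading for 1 SD either side. The groups overlap in all 9 panels. Farsa and Junb show the wide gap between WT 1 and WT 2, and Syce2 the low KO 2 and KO 3.

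Failing the threshold does not show that the levels were equal, and the 95% intervals give the sizes left possible. The 13 intervals were 1.15 to 2.57 log2 units wide. Those of 6 probe sets, for Gcdh, Klf1, Dnase2a, Mast1, Hook2 and 1 of Farsa, lay wholly between -1 and 1, so a 2-fold difference in signal either way is outside them. Klf1, Mast1 and this Farsa set, 1440063_at, were dim, with signals of 99.2 to 158, 122 to 246 and 112 to 307. The constant of 20.2 added before log2 understates differences at such signals, so these 3 intervals bound the signal and not the transcript level. Of the intervals not wholly between -1 and 1, 5 reached down to -1 or below and 3 reached up to 1 or above. No interval of a member reached the upper bound of the Calr interval, which ran from -4.36 to -2.99; the lowest member bound was -1.56, for Farsa.

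Farsa is the nearest of the 9 genes to Calr and had 4 probe sets. With its brightest, 1424907_a_at, the signals were 2190 and 568 in WT 1 and WT 2 and 1629, 1150, 1100, 491 and 637 in KO 1 to KO 5. The wild type pair thus spanned all knockout signals but that of KO 4. The difference was -0.28 (SE 0.57, 95% interval -1.56 to 1.001, limma adjusted p = 0.858). Probe set 1446301_at had 281 and 115 in the wild type libraries and 346, 240, 252, 187 and 180 in the knockout libraries. It followed the same order of libraries in part, with WT 1 and KO 1 high (Pearson r = 0.84 with 1424907_a_at over 7 arrays, as a description), but its difference was 0.33 (adjusted p = 0.734). Probe set 1440063_at had 175 and 185 against 144, 292, 307, 112 and 140, high in KO 2 and KO 3 and low in the other 3 (difference 0.03, adjusted p = 0.982). Probe set 1445003_at had 57.9 and 43.6 against 53.2, 55.9, 199, 98.1 and 45.3, with KO 3 the highest (difference 0.49, adjusted p = 0.692). The 4 probe sets therefore disagree in direction, and r between pairs of them ran down to -0.005.

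Syce2 was the member with the plainest split among the knockout libraries. Its signals were 5378 and 6406 in wild type and 6150, 2944, 2626, 7005 and 5826 in KO 1 to KO 5. KO 2 and KO 3 were below both wild type libraries, by 0.99 and 1.15 on the log2 scale from the wild type mean, and the other 3 deviated by 0.07, 0.25 and -0.01. Over all libraries the difference was -0.37 (SE 0.41, interval -1.29 to 0.56, limma adjusted p = 0.741). Without KO 2 and KO 3 it was 0.10 (interval -0.36 to 0.56, adjusted p = 0.932), so the sign of the difference rests on these 2 libraries.

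KO 2 and KO 3 also stood apart over the whole array. They correlated with each other at r = 0.985 across tested probe sets and with the other 5 libraries at 0.843 to 0.902. Signals of the 3' probe set for the spiked-in Lys control RNA were 15165 in KO 2, 13155 in KO 3 and 6749 to 8508 elsewhere. The log2 ratio of 3' to 5' Actb probe sets was 0.79 in KO 2, 0.89 in KO 3 and 1.46 to 2.08 elsewhere. Other control measures set them less apart. The Gapdh ratio was -0.31 in KO 2, -0.27 in KO 3, -0.17 in KO 1 and -0.04 in WT 1, and KO 4 was highest at 1.32. The 3' probe set for the Dap control RNA had 18436 in KO 2, 18880 in KO 3 and 13000 to 17390.5 elsewhere. The summed signal of 16 fibroblast and feeder cell markers was 34473 in KO 2 and 34334 in KO 3, within the 28700 to 34939 of the wild type libraries. It was 15280 to 22567 in the other knockout libraries, so on this measure those depart from wild type. The part of these measures in the Syce2 values was not tested.

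Gcdh, next after Syce2, varied little. Its signals were 500.5 and 532 in wild type and 434, 366, 418, 469 and 540 in knockout libraries. KO 5 lay above both wild type libraries and the other 4 below both (difference -0.21, SE 0.26, interval -0.79 to 0.36, limma adjusted p = 0.756). Without KO 2 and KO 3 it was -0.10.

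Klf1 was dim. It had 158 and 112 in wild type libraries and 157, 127, 99.2, 103 and 111 in knockout libraries, where WT 1 and KO 1 were the highest and the rest lay together (difference -0.15, SE 0.27, interval -0.75 to 0.45, limma adjusted p = 0.838). Erythroid markers, a list that includes Klf1 itself, were mostly dim as well. Of 14 erythroid markers with a probe set, 6 were tested and 0 called, and Hba-a1, Hba-x, Hbb-bh1, Hbb-y, Alas2, Epb42, Slc4a1 and Nfe2 were under the signal filter. The filter acts on the mean of all libraries, and Hbb-bh1 had 363 in WT 1, 9.0 in WT 2 and 3.4 to 22.5 in knockout libraries. The brightest of the list, Epor and Bcl11a, stood at -0.14 and -1.28 (limma adjusted p = 0.886 and 0.575). The summed signal of the 14 was 2092 in WT 1, 1242 in WT 2 and 819 to 1241 in knockout libraries. With no detection calls in the table, these values do not separate a low transcript level from background.

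Dnase2a, beside Klf1, was the member whose 5 knockout libraries all lay above the wild type log2 mean. It had 436 and 492 in wild type and 478, 507, 785, 547 and 618 in knockout libraries, with KO 1 still below WT 2. The difference was 0.31 (SE 0.28, interval -0.32 to 0.93, limma adjusted p = 0.683), and 0.23 without KO 2 and KO 3. The probe set's identifier, 1448986_x_at, has the suffix that Affymetrix gives to sets whose probes can match other transcripts.

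Mast1 had 204 and 170 in wild type and 246, 125, 122, 145 and 199 in knockout libraries with its brighter probe set. KO 1 was above both wild type libraries, KO 5 between them and the other 3 below both (difference -0.18, SE 0.31, interval -0.88 to 0.51, limma adjusted p = 0.829). Its other probe set, 1432255_at, was the only member probe set under the signal filter and has no test. That set had 84.6 and 65.0 in wild type and 27.4, 37.1, 50.9, 64.0 and 90.3 in knockout libraries, with KO 5 the highest of all 7.

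The brighter probe set of Prdx2 was the only member probe set with all 5 knockout libraries below the wild type log2 mean. Its signals were 13052 and 8606 in wild type and 9400, 7256, 5431, 8741 and 7320 in knockout libraries. KO 1 and KO 4 nevertheless lay above WT 2, so the groups overlapped. The means were 10829 ± 3143 (SD, n = 2) and 7629 ± 1536 (SD, n = 5), and the difference was -0.50 (SE 0.27, interval -1.11 to 0.11, limma adjusted p = 0.575). The second probe set, 1430979_a_at, had 254 and 196 against 190, 124, 98.8, 265 and 211, with KO 4 the highest of all 7 (difference -0.37, adjusted p = 0.706). Without KO 2 and KO 3 the differences of the 2 sets were -0.33 and -0.02. The brighter set stood at -0.20 without WT 1, -0.80 without WT 2 and -0.32 with quantile normalization.

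Junb, next to Prdx2, showed its largest gap within the wild type pair. It had 618 and 219 in WT 1 and WT 2 and 396, 267, 292, 208 and 247 in knockout libraries, so 4 of the 5 knockout signals lay between the wild type signals. The difference was -0.40 (SE 0.39, interval -1.28 to 0.48, limma adjusted p = 0.704), and it turned to 0.30 without WT 1.

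Hook2 had 1129 and 1596 in wild type and 1589, 1962, 1965, 1538 and 1169 in knockout libraries. KO 2 and KO 3 were above both wild type libraries and the other 3 between them (difference 0.26, SE 0.30, interval -0.41 to 0.94, limma adjusted p = 0.744). Without the 2 libraries it was 0.08.

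**Figure D2:**
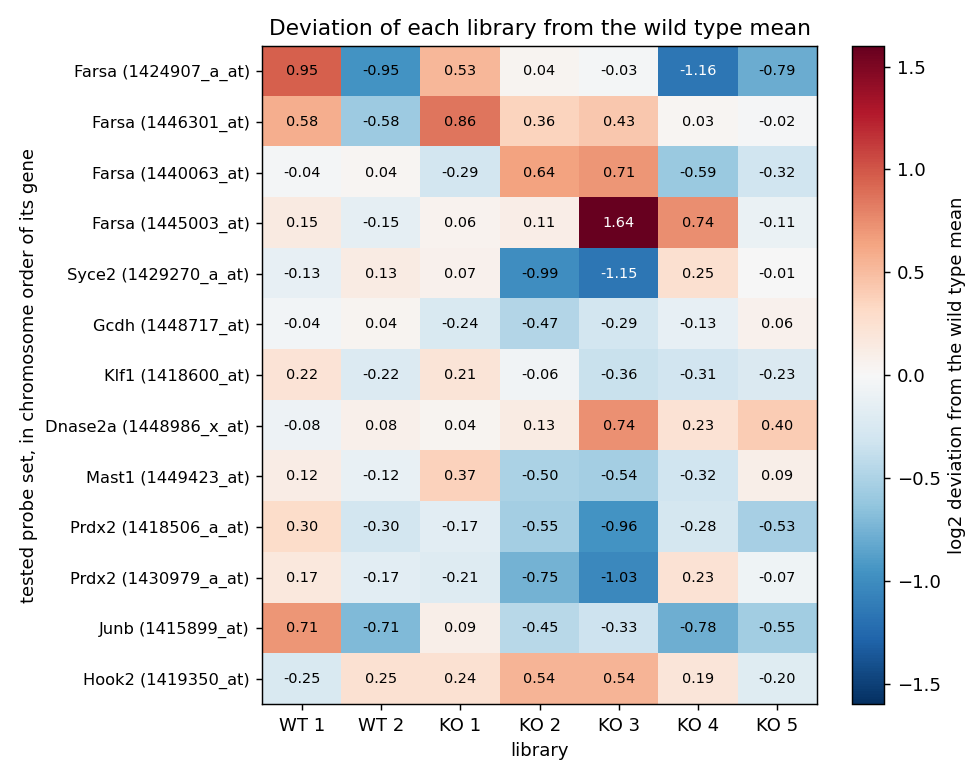
Log2 deviation of each library (columns) from the wild type mean for the 13 tested probe sets (rows, in chromosome order of their genes), with blue below and red above the mean and the value in each cell. Syce2 is at -0.99 and -1.15 in KO 2 and KO 3, Farsa 1424907_a_at is at 0.95 and -0.95 in the wild type pair, and no column is blue or red in all rows.

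Each knockout library held members above and members below the wild type mean. With 1 probe set per gene, 6 of the 9 were below the wild type mean in KO 2, 7 in KO 3, 6 in KO 4, 6 in KO 5 and 2 in KO 1. Of all probe sets tested, 43.0% to 50.3% were below it in these libraries. The median deviation of the 9 was 0.09 in KO 1, -0.45 in KO 2, -0.33 in KO 3, -0.28 in KO 4 and -0.20 in KO 5, where the median over all probe sets tested ran from -0.0032 to 0.14. That background is not 1 probe set per gene and lies higher. The median difference was 0.07 over all probe sets and -0.0041 with 1 per gene. Over the 7 libraries the log2 signals of Farsa and Junb were the most alike (Pearson r = 0.93), followed by Klf1 and Junb (0.83) and Farsa and Klf1 (0.81). At the other end Dnase2a and Prdx2 stood at -0.89. These correlations share 7 arrays and their scaling and are descriptions. Farsa and Junb are not adjacent. The 5 pairs of members in adjacent places were Syce2 and Gcdh (0.73), Prdx2 and Junb (0.62), Junb and Hook2 (-0.41), Dnase2a and Mast1 (-0.54) and Klf1 and Dnase2a (-0.76).

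Over all 13120 tested genes, the genes most like single members were none of the other members. With so many genes against 9, closer matches than among the members were bound to occur. Nek3, which is also on chromosome 8 but not among the neighbours, was most like Syce2 (r = 0.998 over 7 arrays), with 1040 and 1261 in wild type and 1235, 547, 518, 1373 and 1102 in knockout libraries. Agap3 on chromosome 5 and Car9 on chromosome 4 were most like Farsa (0.985 and 0.984). Cbs on chromosome 17 and Zfp428 on chromosome 7 were most like Prdx2 (0.994 and 0.989), and Vps72 on chromosome 3 and Taf6l on chromosome 19 most like Junb (0.986 and 0.974). For the others the closest gene was Spsb2 for Gcdh (0.984), Rps19 for Klf1 (0.962), Zbtb34 for Dnase2a (0.991), Max for Mast1 (0.989) and Habp4 for Hook2 (0.975). With 13120 genes and 7 arrays, correlations of this size are among the highest of a very large number.

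**Figure D3:**
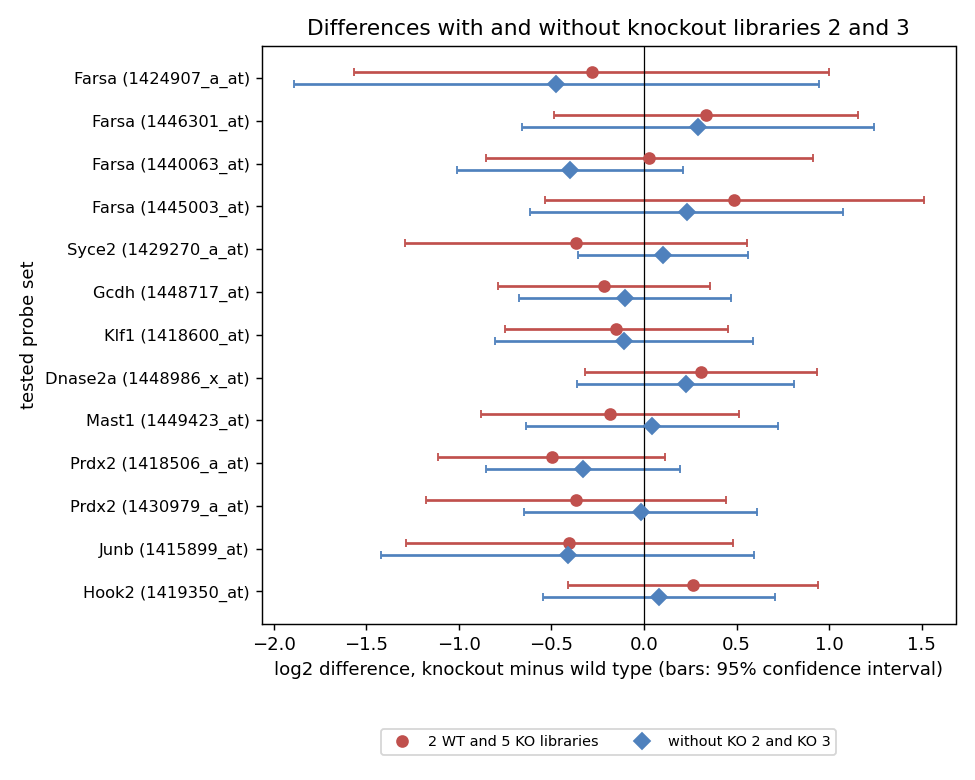
Log2 difference, knockout minus wild type, with its 95% confidence interval for each tested probe set, from all 7 libraries (red circles) and without KO 2 and KO 3 (blue diamonds). All 26 intervals include 0; Syce2 moves from -0.37 to 0.10 and Mast1 from -0.18 to 0.04.

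The member median changed with the libraries included. Without KO 2 and KO 3 the member median was -0.02, 7 of 13 probe sets were negative, 0 were called at an adjusted or an unadjusted p of 0.05, and the lowest adjusted p was 0.825. Over all probe sets 0.0185% and 5.64% passed in that fit, and 46.3% were negative. Syce2, Mast1 and Farsa 1440063_at (-0.40) changed sign. Without WT 1 the member median was 0.02 and 6 of 13 were negative, against 42% of all probe sets. Junb (0.30), Klf1 (0.07), Farsa 1424907_a_at (0.67) and Farsa 1440063_at (-0.0063) were then on the other side of 0.

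Both sides of Calr were then read in chromosome order, since the 9 genes lie on 1 side. Each neighbour was read by its brightest probe set. Within 20 places before and 20 places after Calr, 25 neighbours were tested, 11 before it and 14 after it, the 9 members among the latter. None passed the adjusted threshold in limma, 1 passed an unadjusted p of 0.05 and the differences of these brightest probe sets ran from -0.98 to 0.31. Among dimmer probe sets of the same genes, Farsa 1445003_at stood at 0.49 and 1 for Trmt1, a tRNA methyltransferase gene, at 0.82 (adjusted p = 0.649). Gadd45gip1, at the second place before Calr, encodes a mitochondrial ribosomal protein and had the largest difference. It had 2535 and 1469 in wild type and 1387, 726, 642, 1224 and 1080 in knockout libraries, so all knockout signals were lower (difference -0.98, SE 0.38, interval -1.83 to -0.13, limma unadjusted p = 0.0285, adjusted p = 0.575). Its other probe set overlapped between the groups (-0.26, adjusted p = 0.713), and without KO 2 and KO 3 the first stood at -0.65 (adjusted p = 0.820). By brightest probe set it was the 1 neighbour of 25 whose groups did not overlap, against 13.6% of all probe sets. A dimmer probe set of Nfix, a transcription factor gene 5 places before Calr, was higher in all 5 knockout libraries, with 61.1 and 55.1 in wild type and 64.1, 81.8, 97.0, 83.9 and 85.8 in knockout libraries (0.38, adjusted p = 0.596). The brightest Nfix probe set overlapped (-0.08).

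**Figure D4:**
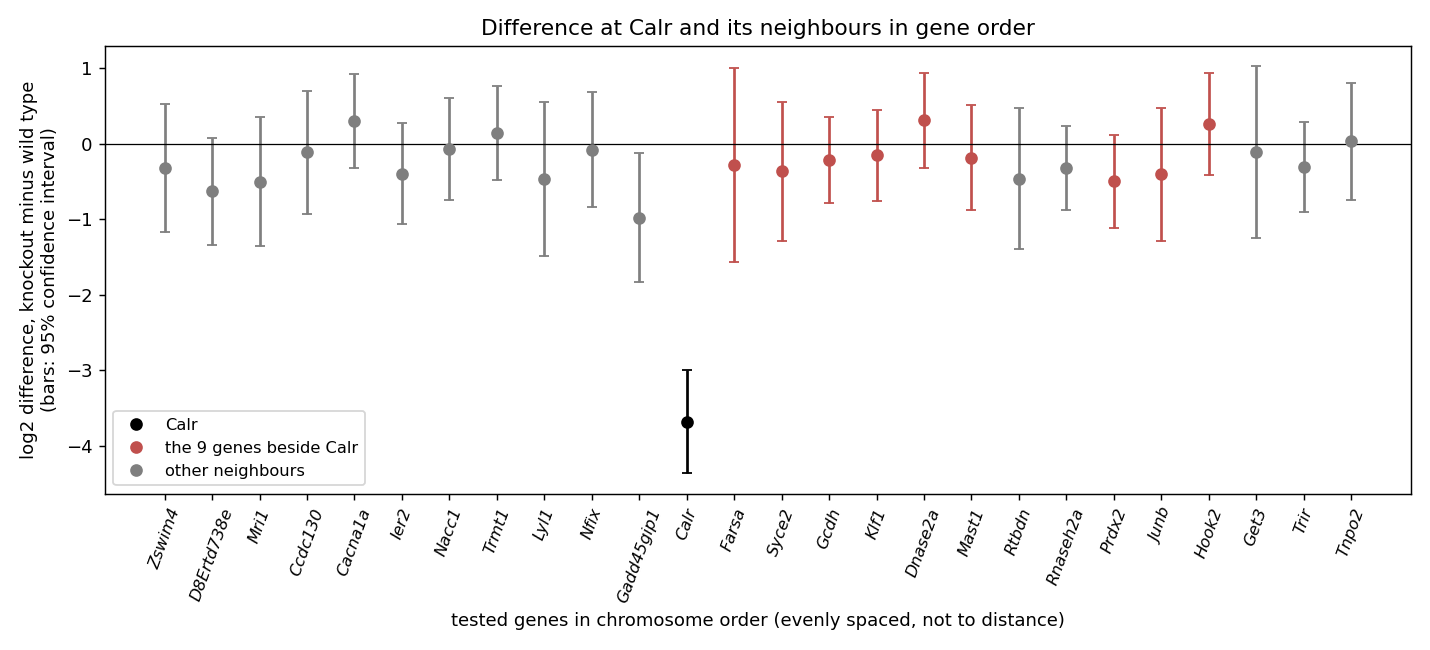
Log2 difference, knockout minus wild type, with its 95% confidence interval, from the brightest probe set of each gene, for Calr (black), the 9 genes beside it (red) and other tested neighbours (grey) in chromosome order, evenly spaced rather than by distance. Calr stands at -3.68, the brightest probe sets of the members lie between -0.50 and 0.31, and the interval of Gadd45gip1 is the one neighbour interval that leaves out 0.

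Of the 25 neighbours, 20 had a negative difference, with a median of -0.28, where 50.3% of all 13120 genes and 53.5% of the 691 tested genes of chromosome 8 were negative. The count was 21 under both other scalings (median -0.29 with quantile normalization, -0.40 with centred arrays) and 18 without KO 2 and KO 3 (median -0.15, all genes 51.1%). Without WT 1 it was 10 of 25 with a median of 0.08 (all genes 48%), and without WT 2 it was 20 of 25 with a median of -0.44. The lean to lower values therefore depended on which wild type library was kept. Whether WT 1 was high or WT 2 low cannot be told from 2 libraries. Rnaseh2a, directly before Prdx2 in gene order, had 3100 and 2462 in wild type and 2363, 1984, 1977, 2556 and 2217 in knockout libraries (-0.32, limma adjusted p = 0.641). Rtbdn, between Mast1 and Rnaseh2a, stood at -0.46 (adjusted p = 0.682), and Trir beyond Hook2 at -0.31 (adjusted p = 0.669). Chromosome 8 as a whole held 1 called gene, Calr, and had a median difference of -0.05 against -0.0041 over all genes.

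The partners of the members in their own pathways were read from lists of genes spread over the genome, each gene by its brightest probe set. No gene of any list passed the adjusted threshold in limma; at an unadjusted p of 0.05 the count was 4 of 10 synaptonemal complex genes, 0 for peroxiredoxins, lysosomal genes and MAST kinases, and 1 or 2 for each other list, where 8.42% of all probe sets passed. Of all 13120 tested genes, 50.3% had a negative difference, the share to set beside the counts of signs below. Genes named below other than the 2 brightest of a list and the paralogues of members were chosen after their values were seen. Farsb, the other subunit of the enzyme of Farsa, had 4569 and 4329 in wild type and 3603, 3452, 3375, 5172 and 4157 in knockout libraries (-0.19, adjusted p = 0.781). Of 19 tested synthetases of the cytosol, 13 were negative (median -0.08), with the alanine enzyme gene Aars at -0.31 and the glycine enzyme gene Gars at -0.03, and the groups did not overlap at 2 (13.6% of all probe sets). Lysine and tryptophan degradation, the pathway of Gcdh, had 13 tested genes, 8 of them negative (median -0.17), with Hadh at -0.33 and Etfb at -0.35.

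Peroxiredoxins and their thioredoxin partners had 11 tested genes, 7 negative (median -0.28; -0.12 without KO 2 and KO 3), and in 3 the groups did not overlap (13.6% of all probe sets). Txn1 stood at -0.14. Prdx3, the mitochondrial relative of Prdx2, had 1805 and 1890 in wild type and 1246, 626, 659, 1612 and 1265 in knockout libraries (-0.86, limma adjusted p = 0.575). Lysosomal hydrolases and DNases, the group of Dnase2a, had 17 of 18 tested genes positive (median 0.36). Their summed signal was 96787 and 93813 in KO 2 and KO 3 against 37912 to 43875 in the other knockout libraries. It was 48902 in WT 1 and 44253 in WT 2. Without KO 2 and KO 3 that median was -0.12, so the direction of the list turned with these libraries. Its bright members Lamp1 and Ctsl stood at 0.08 and 0.11.

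Synaptonemal complex genes had 7 of 10 tested members positive (median 0.51; 0.59 without KO 2 and KO 3). Syce2 stood at -0.37, and at 0.10 without these libraries. Stag3, a meiotic cohesin gene, had 287 and 829.1 in wild type and 1089, 3472, 3342, 828.1 and 897 in knockout libraries (1.64, limma adjusted p = 0.575). Hormad1, which encodes a meiotic chromosome axis protein, had 44.1 and 154 against 301, 1067, 1194, 290 and 548, higher in all 5 knockout libraries (2.49, SE 0.62, adjusted p = 0.575). Syce1, which encodes another protein of the central element, stood at -0.38 (adjusted p = 0.685) and Syce3 at 0.44 (adjusted p = 0.649).

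Kruppel-like factors had 11 of 16 tested genes positive (median 0.13), with the bright Klf2 at -0.53 and Klf9 at 0.59. AP-1 subunits, the partners of Junb, had 12 of 15 negative (median -0.32; -0.08 without KO 2 and KO 3), with Jund at -0.49 and Atf2 at 0.35. Jun had 668 and 245 in WT 1 and WT 2 and 211 to 428 in knockout libraries (-0.37, limma adjusted p = 0.744), the same wide wild type gap as Junb. Fos had 361 and 338 against 213 to 392 (-0.28, adjusted p = 0.728). Immediate early genes, which include Junb, had 16 of 21 negative (median -0.28; -0.08 without KO 2 and KO 3). Their bright members were Klf2 and Ier2, itself 9 places before Calr, at -0.40 (adjusted p = 0.633).

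The MAST kinase list had 3 of 5 negative, with Mast2 at -0.21 and Mastl at 0.27. Hook proteins and their dynein, dynactin and FHF complex partners had 13 of 21 positive (median 0.04), with Dynll1 at -0.42 and Dync1h1 at 0.34, and the groups did not overlap at 5 of the 21 (13.6% of all probe sets). The paralogues of Hook2 had larger positive differences than Hook2 without passing. Hook3 had 65.2 and 376 in wild type and 559, 1101, 1106, 380 and 472 in knockout libraries (1.88, SE 0.61, limma adjusted p = 0.575), and Hook1 stood at 0.52 (adjusted p = 0.579). Dctn5, a dynactin subunit gene, had 1402 and 922 against 647, 376, 445, 518 and 581 (-1.14, adjusted p = 0.575). Lower in all 5 knockout libraries by smaller margins were Dctn1 (-0.40), Dctn3 (-0.36) and Dync1li2 (-0.32).

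All 14 listed stem cell markers were bright enough on average to be tested, with 8 positive and 6 negative (median 0.04). The bright Dppa5a and Zfp42 stood at -0.07 and -0.0015. The summed signal of the 14 was 107194 and 119375 in wild type and 94630 to 135403 in knockout libraries. Markers of other cell types were 12 of 14 tested for primitive endoderm (median -0.45, bright members Sparc at -0.45 and Col4a1 at -0.04; summed signal 13530 and 18081 in wild type, 10688 to 20975 in knockout libraries), 8 of 11 for neural ectoderm (median 0.38; -0.04 without KO 2 and KO 3, Stmn2 at 0.29 and Nes at -0.94; 10099 and 5860 against 6783 to 10741) and 15 of 16 for fibroblasts and feeders (median -0.10; -0.68 without KO 2 and KO 3). In the last list Fn1 stood at 0.14 and Vim at -1.77 (limma adjusted p = 0.550). No marker was listed at 0 in every library, but without detection calls a signal above 0 does not show a transcript. In pooled cultures fewer cells of a type and less RNA per cell cannot be told apart.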

How the data were processed

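The authors deposited linear intensities, and the submitters' processing notes name MAS5 as the tool; its version, the scanner and any detection calls are not given in the sources used here. Array medians ran from 92.6 to 124.9, and no further normalization was applied. A pseudocount of 20.2 (20th percentile of the table) was added before log2, which understates differences of dim probe sets. Of 45101 probe sets, 64 controls were set aside and 27022 with a mean above the 40th percentile were tested. In the platform's gene table, 34958 probe sets have 1 symbol, 932 several and 9211 none. Only the first were named, with symbols and gene order from RefSeq (GRCm38.p6). A gene in a list was read by its brightest probe set.

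Groups, taken from the sample titles, went into limma 3.58.1 under R 4.3.3 (trended eBayes, two-sided, Benjamini-Hochberg over all probe sets, threshold 0.05). The fit was also run on simulated data with errors independent between libraries. Those data do not hold the likeness of KO 2 and KO 3, so they do not test the fit under it. The members, lists, naming rule (all members, Calr, any neighbour within 20 places, the 2 brightest genes of each list, the 2 genes most like each member, of which the text gives 1 or 2) and alternatives were chosen with earlier results of these data known. Figures were drawn with matplotlib 3.10.9. Precision is limited by having 2 and 5 arrays a group.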

Additional observations from a re-analysis of the deposited data

Results flagged for a closer look

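Among 87 probe sets examined, 4 had 1 knockout library whose gap to the nearest other, over the range of the 5 knockout libraries on the log2 scale, exceeded Dixon's critical value of 0.71; chance alone gives about 1 in 20. KO 4 had a signal of 489 with the Calr probe set 1456170_x_at, where the other 4 knockout libraries had 813 to 978. KO 2 had 37.1 with the untested probe set of Dand5, a neighbour at the third place before Calr, against 68.0 to 76.2. KO 5 had 2109 for Dctn3, against 1924 to 1950.0. KO 1 had 518 for Dync1li2, against 713 to 789. No member probe set was among them.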

How the results depend on the processing

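The alternatives were other scalings, filters, pseudocounts and limma settings, and libraries left out. Over 19 alternatives the count of member probe sets called was 0 in each, and the lowest adjusted p of a member was 0.276 (Junb, without WT 2). Of 240 recomputed member differences, 222 kept their direction and 18 turned, all without passing the threshold; the cause was not tested. Farsa 1440063_at turned with quantile normalization (-0.14), centred arrays (-0.089), array weights (-0.17) and KO 2 and KO 3 left out or as a batch term (-0.40). Syce2 (0.10) and Mast1 (0.044) turned in the latter 2 fits as well. With 1 library left out at a time, the range was -1.24 to 0.67 for Farsa 1424907_a_at, -0.14 to 0.18 for 1440063_at, -0.24 to 0.91 for 1446301_at, -1.11 to 0.30 for Junb and -0.37 to 0.069 for Klf1; each of the 5 crossed 0. The replicate numbers 1 and 2 occur in both groups, and deviations of same-numbered libraries from their group means correlated at 0.11 and -0.0098. With 2 wild type libraries their deviations mirror each other, so these values cannot decide whether same-numbered libraries were paired. With the replicate number as a block, Klf1 (0.073) and Farsa 1424907_a_at (0.28) turned and 15 probe sets were called over the array. That count was 8 in the report, 5 without a filter, 4 with the 60th percentile, 2 with 1 probe set per gene, 5 without KO 2 and KO 3, and 0 to 7 with 1 library left out, the 0 without WT 1 or WT 2, 4 without KO 1 and 5 without KO 4 or KO 5. Calr kept its direction in all 19 (-3.84 to -3.52) and its call in 17, missing it without WT 1 (limma adjusted p = 0.254) or WT 2 (0.129).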
